A study of Sus scrofa with 12 samples.

Results

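The 10 genes described here are NPC2, LTF, CLU, ITM2B, CES5A, PROM2, TEDDM1, LY6L, SFTA2 and RIPPLY1, which code for abundant or library-restricted products of the boar epididymis. They were taken as the rows of exactly these names from the 30640 gene rows of each count file, and all 10 were found. They had been picked from these same data for their share of epididymis reads, their fold over testis and the epididymis libraries that carry or lack them. Their tissue difference is therefore given as a description, with no test. The label under which they were grouped speaks of secretory and membrane genes, and it fits the known products of 9 of them, whereas RIPPLY1 codes for a nuclear corepressor.

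The samples were testis and epididymis of adult BMI boars, an inbred line of the Banna mini-pig, with no treatment or genotype difference between the groups and 5 short-read RNA libraries for each tissue. Both tissues came from the same boars, since the animal numbers in the file headers recur. The labels put every boar at 12 months of age. In the file headers the age is 12 months for replicates 1 and 2, 11 months for replicates 3 and 5 and 17 months for replicate 4. The labels do not say which segment of the epididymis was taken, and another 2 libraries, long-read pools of each tissue, were not analysed here.

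The epididymis is a long coiled duct in which sperm leaving the testis mature and are stored. Its principal cells secrete proteins into the lumen, where these coat, exchange lipids with or protect the sperm, and the set of secreted proteins changes from the proximal to the distal end. Among the secreted products, NPC2 binds cholesterol, lactoferrin (LTF) binds iron, clusterin (CLU) is an extracellular chaperone and CES5A is a secreted carboxylesterase. SFTA2 is a small secreted protein first described in lung. At the membrane, ITM2B is a single-pass protein that is cleaved by proteases, PROM2 is a prominin of cell protrusions, LY6L belongs to the LY6 family of small surface proteins and TEDDM1 is a multi-pass membrane protein named for the epididymis.

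Library totals ran from 18715154 to 30211957 reads in testis and from 17980578 to 21937263 in epididymis, so that a count of 0 in a library allows up to 3 reads, or 0.0993 to 0.167 counts per 1000000 reads (CPM). Some libraries stood apart from the others of their tissue. The signal recognition particle RNA, which has no poly(A) tail, ran from 7888 to 9134 CPM in 4 testis libraries but stood at 7.75 CPM in replicate 4. In the epididymis libraries it was 1.00 to 8.27 CPM, so testis replicate 4 was like epididymis in this RNA. In the other 4 testis libraries this difference runs along the tissue comparison, and its part in the tissue differences was not tested. Among 9856 genes with a mean of at least 10 CPM in epididymis, epididymis replicate 3 lay at least 10-fold above each other epididymis library in 84 and at least 10-fold below each in 92. The corresponding counts for the other epididymis libraries were 0 to 9 and 5 to 11. The tissue labels held against marker genes. The summed CPM of 7 epithelial and principal cell genes was 1652 to 4238 in epididymis and 65.1 to 89.9 in testis, and that of 5 Leydig cell genes was 12144 to 19341 in testis and 26.6 to 33.7 in epididymis. In whole tissue, more cells of a type and more RNA per cell cannot be told apart.

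Together the 10 genes took 3.04% ± 1.12 of all epididymis reads (SD, n = 5) and 0.281% ± 0.0367 of testis reads. The share was 2.65%, 2.32%, 4.40%, 4.04% and 1.81% in epididymis replicates 1 to 5, and the Wilson 95% interval of the highest was 4.39% to 4.40%. In testis replicates 1 to 5 it was 0.316%, 0.279%, 0.3004%, 0.220% and 0.291%. Every epididymis library thus lay above every testis library, and the epididymis libraries differed among themselves by more than the testis libraries did. Intervals cover counting error only, since reads without molecular identifiers are not independent molecules.

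**Figure D1:**
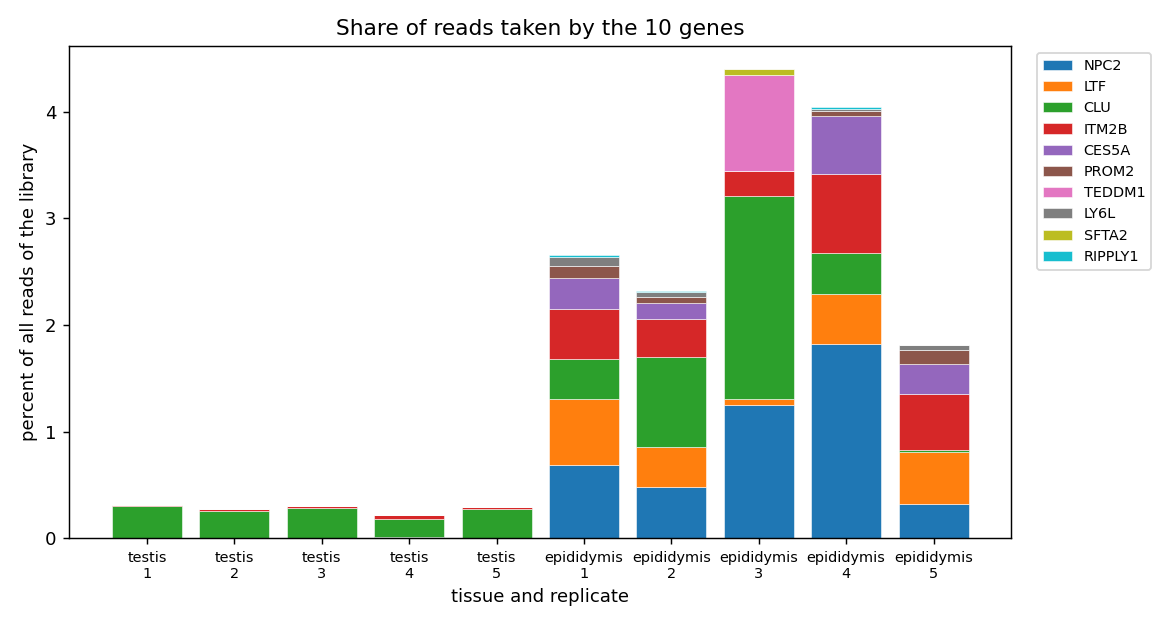
Percent of all reads of a library taken by each of the 10 genes, as stacked bars for testis and epididymis replicates 1 to 5. The testis bars are at 0.220% to 0.316% and are mostly CLU, whereas the epididymis bars are at 1.81% to 4.40% and are made up of different genes in different libraries.

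The make-up of this share differed between libraries. CLU accounted for 75.9% to 93.3% of the reads of the 10 genes in testis. In epididymis the first place went to NPC2 in replicates 1 and 4 (26.0% and 45.0%), to CLU in replicates 2 and 3 (36.6% and 43.3%) and to ITM2B in replicate 5 (28.7%). TEDDM1 was 20.4% of the reads of the 10 genes in replicate 3. Per transcript length, as transcripts per 1000000 (TPM), the order of mean epididymis levels was NPC2, CLU, ITM2B, TEDDM1, CES5A, LTF, LY6L, SFTA2, PROM2 and RIPPLY1, from 13178 ± 9905 to 57.6 ± 56.4 TPM (SD, n = 5). Neighbours in that order mostly lay within each other's spread, and TEDDM1 held its place through replicate 3 alone, with 23583 TPM there and 5.68 to 16.1 in the others.

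**Figure D2:**
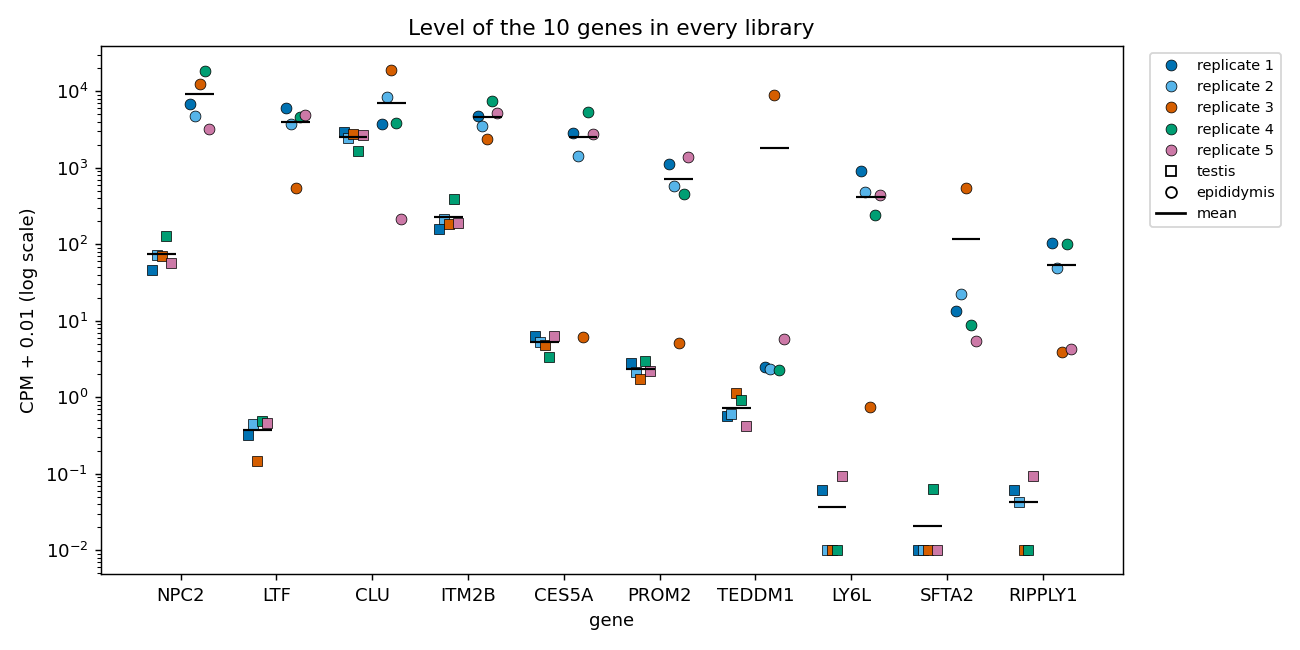
Level of each of the 10 genes in every library, as CPM + 0.01 on a log axis, with testis as squares, epididymis as circles, 1 colour for each replicate number and a bar at the mean. In epididymis replicate 3, CES5A, PROM2 and LY6L sit at 6.11, 5.15 and 0.729 CPM, far under the other epididymis libraries, whereas TEDDM1 and SFTA2 sit at 8947 and 540 CPM, far above them.

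NPC2, which carries cholesterol out of lysosomes and is also a major protein of epididymal fluid (chromosome 7, 97730532 to 97740087, build Sscrofa11.1), had 6899, 4815, 12499, 18187 and 3232 CPM in epididymis replicates 1 to 5. In testis it had 46.2, 72.8, 69.2, 127 and 56.5 CPM. The groups did not overlap, and the highest testis value was in replicate 4. The log2 fold change, epididymis over testis, was 6.89 ± 0.56 (SE). NPC2 was the most abundant gene of epididymis replicate 4 by CPM, and its epididymis levels spanned 5.63-fold.

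CLU, a chaperone that is also made by Sertoli cells of the testis (chromosome 14, 11336585 to 11352569), had 3744, 8476, 19006, 3868 and 213 CPM in epididymis. Its testis levels were 2942, 2487, 2743, 1670 and 2657 CPM. It was the member with the smallest tissue difference, with a log2 fold change of 1.45 ± 0.75, and the groups overlapped because epididymis replicate 5 lay under every testis library. Within boars, the log2 ratio ran from -3.64 in replicate 5 to 2.79. The log2 fold change was 0.71 without epididymis replicate 3, 1.79 without replicate 5 and 0.77 with the boar as a replicate block, and CLU spanned 89.4-fold within epididymis. Replicate 5 was the lowest by 17.6-fold against the next.

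LTF, an iron-binding protein of secretions and of neutrophil granules (chromosome 13, 29413886 to 29445751), had 6132, 3751, 547, 4672 and 4840 CPM in epididymis. In testis it had 0.307, 0.430, 0.139, 0.481 and 0.452 CPM, from 42 reads in all 5 libraries. The groups did not overlap, replicate 3 was the lowest epididymis library by 6.86-fold, and the log2 fold change was 13.39 ± 0.83. Because neutrophils also make LTF, their markers were read beside it. The 7 with a row summed to 7.59 to 52.8 CPM in epididymis and 4.92 to 11.8 in testis. The highest sum, in epididymis replicate 4, held 40.5 CPM of the protease MMP9. ELANE, neutrophil elastase, had 5.14 to 11.4 CPM in epididymis and 1.12 to 3.59 in testis, with no overlap, and was the marker of this list called higher in epididymis (log2 1.71 ± 0.36, edgeR adjusted p = 0.000896). The myeloperoxidase gene MPO and the calprotectin gene S100A8 had 0 reads in epididymis replicates 1, 2, 4 and 5 and 0.0456 CPM each in replicate 3. MPO had 1.23 to 4.40 CPM in testis and was the marker of this list called higher there (log2 -7.63 ± 0.76, edgeR adjusted p = 1.55e-06). S100A8 did not pass the filter. The part of neutrophils in the LTF level was not tested.

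CES5A, an esterase also known as cauxin (chromosome 6, 29842142 to 29874073), had 2841, 1425, 6.11, 5414 and 2802 CPM in epididymis. Its testis levels were 6.25, 5.23, 4.86, 3.31 and 6.32 CPM. In epididymis replicate 3, the level was within the range of the testis libraries and lower by 233-fold than in any other epididymis library. The groups therefore overlapped, although the log2 fold change was 8.87 ± 1.28. The within-boar log2 ratio was 0.32 in the boar of replicate 3 and reached 10.63 in another.

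SFTA2 lies in a gene-dense stretch of chromosome 7 (23420430 to 23421469) and had 13.2, 22.3, 540, 8.73 and 5.48 CPM in epididymis. In testis there was 1 read in all, in replicate 4. Replicate 3 lay 24.2-fold above the next epididymis library, and all 5 lay above testis. The ratio of pooled read shares was 14879, with an exact 95% counting interval of 2670 to 587718 that does not cover the spread between libraries. The fitted log2 fold change was 12.91 ± 2.22 with all libraries and 9.74 without epididymis replicate 3.

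ITM2B, the source of a peptide released by furin and a known partner of the amyloid precursor protein (chromosome 11, 19349088 to 19377931), was the most even of the 10 across the duct libraries. It had 4764, 3551, 2396, 7432 and 5208 CPM in epididymis, a span of 3.10-fold. In testis it had 156, 217, 183, 396 and 191 CPM, and the replicate 4 value stood apart. The groups did not overlap, and the log2 fold change was 4.33 ± 0.38.

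PROM2, a cholesterol-binding glycoprotein of microvilli and other protrusions (chromosome 3, 46001949 to 46025425), had 1105, 576, 5.15, 455 and 1373 CPM in epididymis. In testis it had 2.82, 2.12, 1.71, 2.94 and 2.22 CPM. Replicate 3 was 88.4-fold lower than the next epididymis library and only just above the highest testis library, so that the groups did not overlap. The log2 fold change was 8.23 ± 1.13.

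LY6L (chromosome 4, 1296421 to 1300185) had 902, 482, 0.729, 242 and 438 CPM in epididymis. Its testis total was 3 reads, in replicates 1 and 5. Replicate 3, with 16 reads, was 331-fold lower than any other epididymis library but above the testis libraries. The ratio of pooled read shares was 15462 (exact 95% counting interval 5291 to 74982), and the fitted log2 fold change was 13.66 ± 1.80.

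TEDDM1 (chromosome 9, 123765986 to 123773210) had the reverse pattern, with 2.49, 2.35, 8947, 2.28 and 5.73 CPM in epididymis replicates 1 to 5. Its testis levels were 0.564, 0.596, 1.11, 0.908 and 0.411 CPM. Replicate 3 lay 1562-fold above the next epididymis library and held TEDDM1 as its 6th most abundant gene. The other 4 epididymis libraries were low, at 2.28 to 5.73 CPM, but lay above every testis library, of which the highest had 1.11 CPM. The log2 fold change was 11.21 ± 2.89 with all libraries, 2.18 without epididymis replicate 3 and 3.31 with the boar as a replicate block, so that its abundance in epididymis rests on 1 library.

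RIPPLY1, a corepressor that recruits Groucho/TLE proteins to T-box factors in the segmenting embryo (chromosome X, 87315355 to 87319580), was the least abundant of the 10. It had 105, 48.95, 3.87, 102 and 4.21 CPM in epididymis replicates 1 to 5 and 4 reads in all testis libraries. Replicates 3 and 5 were both low, and replicates 1, 2 and 4 were high. All 5 lay above testis, with a log2 fold change of 10.31 ± 1.35.

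Read across the members, all 5 epididymis libraries lay above all 5 testis libraries for 8 of the 10, the exceptions being CLU and CES5A. Over all 17225 genes tested this held for 29.3%. Since the members were picked on this contrast, nothing is read from that count. All 10 passed the filter on low counts. LY6L, SFTA2 and RIPPLY1, with 1 to 4 testis reads, could pass it only through their epididymis libraries.

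Members differed most in which epididymis libraries held them. As a description, the SD of log2 CPM over the 5 epididymis libraries was 0.61 for ITM2B, 1.01 for NPC2 and 1.42 for LTF. It was 2.39 to 2.62 for RIPPLY1, CLU and SFTA2, and 3.30 for PROM2, 4.0 for CES5A, 4.14 for LY6L and 5.18 for TEDDM1. Against the 9856 genes of at least 10 CPM, ITM2B stood at percentile 72.5 of this SD, NPC2 at 90.3, LTF at 94.9 and the other 7 members at 98.3 or above. Of the members, TEDDM1 and SFTA2 were among the 84 genes at least 10-fold above every other library in replicate 3, and CES5A, PROM2 and LY6L among the 92 at least 10-fold below. CLU was among the 11 genes at least 10-fold below every other library in replicate 5. The members were picked partly on the epididymis libraries that carry or lack them. Nothing is therefore read from these percentiles and places.

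Epididymis replicate 3 also differed in genes known from the proximal duct of other mammals. Of 9 such genes with a row, the summed level was 14109 CPM there and between 635 and 1235 CPM in the remaining epididymis libraries, against 6.43 to 11.2 CPM in testis. RNASE10, a secreted protein of the RNase A family, had 5909.5 CPM there and between 6.12 and 16.02 elsewhere in epididymis. OVCH2, an ovochymase required for sperm function in mice, had 1938 CPM and at most 0.328 elsewhere, and the glutathione peroxidase GPX5 had 2577 CPM and 1.56 to 52.7 elsewhere. LCN8, a lipocalin, did not follow, with 68.5 CPM beside a range of 35.5 to 72.7. Others of the 9 were less restricted to replicate 3. CST11 had 599 CPM there and 382 CPM in replicate 4. ADAM7 and ADAM28 had 928 and 1537 CPM in replicate 3, beside 319 to 448 and 225.5 to 348 CPM elsewhere in epididymis. Genes of haploid germ cells were also higher in that library, with a sum over 8 genes of 513 CPM against 24.9 to 77.4, and genes of clear cells summed to 28.0 CPM against 0 to 8.45. The part of duct segment, sperm content or cell mix in the levels of the 10 genes was not tested.

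**Figure D3:**
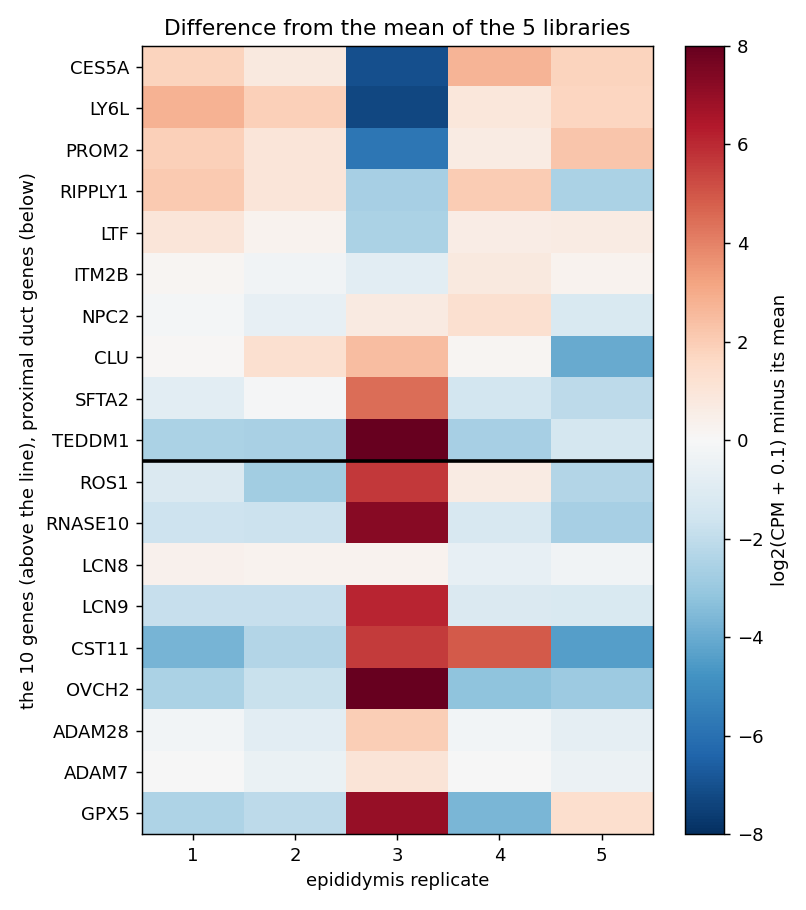
Difference of log2(CPM + 0.1) from its mean over the 5 epididymis libraries, for the 10 genes above the line and 9 proximal duct genes below it, with columns for replicates 1 to 5. The column of replicate 3 is blue for CES5A, LY6L and PROM2 and red for TEDDM1, SFTA2 and most proximal duct genes, while LCN8 is pale in every column.

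Pattern likeness was measured as the root mean square (RMS) difference of centred log2 CPM over the 5 epididymis libraries, against 9855 other genes of at least 10 CPM. CES5A, PROM2 and LY6L lay close to one another, with RMS differences of 0.91 to 1.11, against 2.59 between TEDDM1 and SFTA2 and 8.30 between TEDDM1 and LY6L. The genes most like TEDDM1 were CLDN14, a tight junction claudin (RMS 0.48), and SLC1A1, a glutamate transporter (RMS 0.51). CLDN14 had 243 CPM in replicate 3 and at most 0.0556 elsewhere in epididymis, and SLC1A1 983 CPM and at most 0.734. For SFTA2 they were RNF122, a ubiquitin ligase (RMS 0.34, 97.2 CPM in replicate 3), and SYT12, a synaptotagmin (RMS 0.43, 183 CPM). For LY6L they were 2 genes without a symbol, ENSSSCG00000040753.2 and ENSSSCG00000051197.1. The former had 35.5 CPM in replicate 3. It had 22312, 21723 and 22955 CPM in replicates 1, 2 and 5, above every value of the 10 genes, and 9638 CPM in replicate 4.

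For PROM2 the nearest were TRIM15 (RMS 0.30) and ACOXL (RMS 0.33), and for CES5A NRK, a kinase (RMS 0.48), and a gene without a symbol (RMS 0.57). RIPPLY1 was nearest to NALCN, a sodium leak channel (RMS 0.58), and to HSD11B2, which inactivates glucocorticoids (RMS 0.64). Like RIPPLY1, both were low in replicates 3 and 5, with NALCN at 2.64 and 3.18 CPM against 15.8 to 52.2 in the remaining 3. LTF was nearest to TRIM46 (RMS 0.16) and to SLC6A2, the noradrenaline transporter (RMS 0.21). NPC2 was nearest to MYO10 (RMS 0.16) and PSAT1 (RMS 0.17), and ITM2B to TSPAN13 and STK17B (RMS 0.07 each). The nearest genes of CLU, both without a symbol, lay farther off than those of any other member, at RMS 0.87 and 1.09. These are descriptions over 5 libraries that all genes share.

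The families and known partners of the 10 genes had no part in their choice and were tested. Their lists were, however, drawn up with earlier results of these data known. Of 127 genes in these lists, 109 had a row and 94 were tested. At an adjusted p of 0.05, 42 passed edgeR's quasi-likelihood test as higher in epididymis and 27 as higher in testis, with 25 not called. Over all genes tested 37.8% were called higher in epididymis and 36.6% higher in testis (74.4% in all). The median log2 fold change, epididymis over testis, was 0.54 for the lists and 0.07 over all genes.

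**Figure D4:**
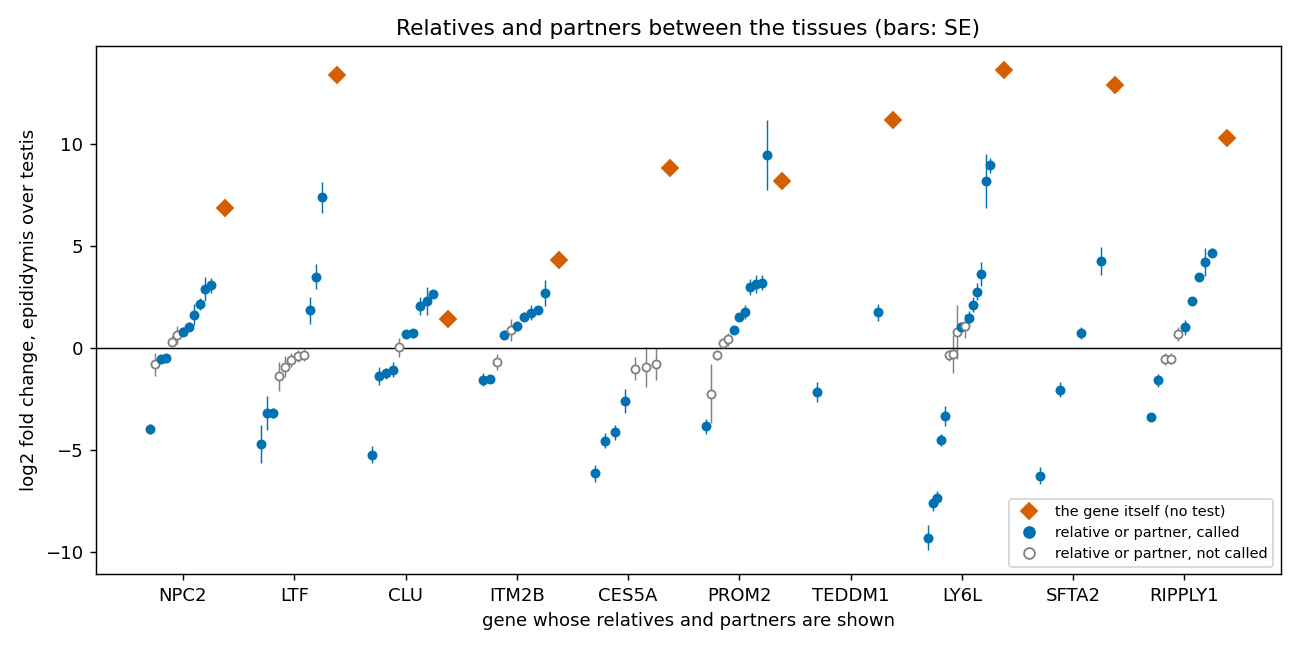
Log2 fold change, epididymis over testis, of the tested relatives and partners of each of the 10 genes (circles, filled where called, bars for the SE) and of the gene itself (diamonds, no test). The diamond lies above every circle of its list except for CLU and PROM2, and the circles of CES5A all lie under 0.

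For NPC2, the list held genes of lysosomal cholesterol handling and sorting. Of 12 tested, 6 were higher in epididymis and 3 in testis. NPC1, the membrane protein to which NPC2 hands cholesterol, was higher in testis, with 202 ± 50.8 CPM against 13.4 in epididymis, where it ran from 10.3 to 20.02 (log2 -3.95 ± 0.25, edgeR adjusted p = 1.12e-07). LAMP2, a lysosomal membrane protein, was higher in epididymis, with 346 to 1353 CPM against 76.9 ± 12.2 (log2 3.09 ± 0.36, edgeR adjusted p = 1.08e-05). LAMP1 was higher in testis by a small margin (log2 -0.53 ± 0.19, edgeR adjusted p = 0.0231, but 0.0594 without epididymis replicate 4), and IGF2R, the large mannose 6-phosphate receptor, was not called (log2 0.32 ± 0.28).

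For LTF, the list held transferrins and genes of iron transport, of which 3 of 11 tested were higher in epididymis and 3 in testis. The transferrins TF and MELTF, the relatives of LTF, were higher in testis. TF had 10.1 ± 8.45 CPM in testis and 0.0979 to 2.89 in epididymis (log2 -3.20 ± 0.83, edgeR adjusted p = 0.00412). MELTF, a membrane-bound transferrin, had 145 ± 18.8 CPM in testis and 0.343 to 17.2 in epididymis (log2 -4.71 ± 0.92, edgeR adjusted p = 0.000613). Ceruloplasmin, CP, a ferroxidase, was higher in epididymis, with 21.2 to 237 CPM against 0.518 ± 0.415 (log2 7.40 ± 0.78, edgeR adjusted p = 4.74e-06). The ferritin light chain FTL and the iron transporter SLC11A2, the other abundant members, were not called, although SLC11A2 was higher in testis without testis replicate 4 (log2 -0.56, edgeR adjusted p = 0.0404). The count higher in testis was 5 without epididymis replicate 3 and 5 with the replicate block.

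For CLU, the list held receptors and apolipoproteins, of which 5 of 10 tested were higher in epididymis and 4 in testis. LRPAP1, a chaperone of lipoprotein receptors, was higher in epididymis (log2 0.73 ± 0.23, edgeR adjusted p = 0.0122). LRP2 (megalin), an endocytic receptor that binds clusterin, had 5.65 to 201 CPM in epididymis against 15.7 ± 2.80 (log2 2.32 ± 0.68, edgeR adjusted p = 0.00872), and was lowest in replicate 3. APOE was not called, with 73.1 to 771 CPM in epididymis against 318 ± 154.

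For ITM2B, 6 of 10 tested relatives, processing enzymes and partners were higher in epididymis and 2 in testis. ITM2C, its paralog, had 274 to 553 CPM in epididymis against 115 ± 17.01 (log2 1.55 ± 0.22, edgeR adjusted p = 5.46e-05). APP, the amyloid precursor protein, had 457 to 725 CPM against 154 ± 22.1 (log2 1.89 ± 0.19, edgeR adjusted p = 3.05e-06). FURIN, which cuts ITM2B, and ADAM10, which sheds it, were higher in epididymis (log2 1.74 ± 0.36 and 1.08 ± 0.25). SPPL2B, which cleaves the remaining stub in the membrane, was higher in testis (log2 -1.49 ± 0.18, edgeR adjusted p = 1.58e-05). APLP2 was not called and stood at 1830 CPM in epididymis replicate 3, above a range of 243 to 326 elsewhere in epididymis.

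For CES5A, edgeR called 0 of 7 tested esterases and lipid-ester enzymes higher in epididymis (0 also at an unadjusted p of 0.05, and 0 by DESeq2) and 4 higher in testis. The hormone-sensitive lipase LIPE had 715 ± 120 CPM in testis and 5.09 to 21.5 in epididymis (log2 -6.14 ± 0.41, edgeR adjusted p = 1.54e-07). SOAT1, which esterifies cholesterol, had 104 ± 46.2 CPM in testis and 4.06 to 10.4 in epididymis (log2 -4.14 ± 0.38, edgeR adjusted p = 1.51e-06). The carboxylesterase CES3 was not called with all libraries, at 231 CPM in epididymis replicate 4 but 8.32 to 17.5 elsewhere in epididymis, and was higher in testis without that library (log2 -2.70, edgeR adjusted p = 5.78e-06) and with the replicate block (log2 -2.19, edgeR adjusted p = 0.0218). With the replicate block 7 of the 7 were higher in testis. The count higher in epididymis was 1 with no filter, without any 1 of the 5 testis libraries and without epididymis replicate 4. AADAC, an arylacetamide deacetylase, did not pass the filter with all libraries, with 0.389 to 42.5 CPM in epididymis against 0.0717 ± 0.0495.

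For PROM2, 7 of 12 tested genes of protrusions and membrane microdomains were higher in epididymis and 1 in testis. That gene was the paralog PROM1, with 75.2 ± 22.6 CPM in testis and 2.69 to 8.38 in epididymis (log2 -3.83 ± 0.36, edgeR adjusted p = 1.79e-06). EZR, ezrin, which links microvilli to actin, had 419 to 1525 CPM in epididymis against 254 ± 46.1 (log2 1.79 ± 0.35, edgeR adjusted p = 0.000597). CAVIN1, a coat protein of caveolae, was higher in epididymis too (log2 1.54 ± 0.19, edgeR adjusted p = 1.39e-05). ESPN, an actin bundler, was not called with all libraries, since it had 789 CPM in epididymis replicate 3 but 1.48 to 31.5 elsewhere in the duct, against 740 ± 69.7 in testis. It was higher in testis without that library (log2 -6.40, edgeR adjusted p = 8.66e-05) and with the replicate block (log2 -6.68, edgeR adjusted p = 0.00524). The count higher in testis was 2 in both of these fits and without testis replicate 4.

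For LY6L, 16 of 32 relatives with the LY6 fold were tested, of which 7 were higher in epididymis and 5 in testis. PATE2, a small secreted relative, had 273 to 533 CPM in epididymis against 0.820 ± 0.352 (log2 8.99 ± 0.37, edgeR adjusted p = 9.61e-09) and, unlike LY6L, was carried by all 5 libraries. PATE3 had its lowest level, 1.92 CPM, in replicate 3, beside 8.96 to 231 CPM elsewhere in epididymis. The sperm proteins SPACA4 (log2 -7.62 ± 0.35, edgeR adjusted p = 1.72e-08), LYPD4 (log2 -4.51 ± 0.30, edgeR adjusted p = 1.33e-07) and TEX101 (log2 -9.31 ± 0.61, edgeR adjusted p = 1.21e-07) were higher in testis. TMEM45A and TMEM45B, the only relatives of TEDDM1 with a row, had 0.548 to 2.01 and 0.0979 to 0.548 CPM in epididymis, the former higher there than in testis (log2 1.77 ± 0.42, edgeR adjusted p = 0.00208) and the latter in testis (log2 -2.13 ± 0.49, edgeR adjusted p = 0.00167).

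For SFTA2, the 4 tested genes of lung surfactant were split, with SFTPA1 and ABCA3 higher in epididymis and SFTPC and NAPSA higher in testis. SFTPC, a surfactant protein, had 40.4 ± 9.72 CPM in testis and 0.204 to 1.003 in epididymis (log2 -6.26 ± 0.43, edgeR adjusted p = 1.73e-07), and the protease NAPSA followed (log2 -2.05 ± 0.37, edgeR adjusted p = 0.000298). ABCA3, a lipid transporter, was called by a small margin (log2 0.73 ± 0.30, edgeR adjusted p = 0.0435) that was lost without any of epididymis replicate 3 and testis replicates 1, 3, 4 and 5 (edgeR adjusted p = 0.0636 to 0.119) and with DESeq2 (adjusted p = 0.0744) or its size factors (edgeR adjusted p = 0.0786). The count higher in epididymis was 1 in each of these fits.

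For RIPPLY1, 5 of 10 tested corepressors, T-box factors and MESP2 were higher in epididymis and 2 in testis, but 4 in testis by DESeq2, with no filter or without epididymis replicate 4. The T-box factors TBX2 and TBX3 had 160 to 234 and 107 to 154 CPM in epididymis, against 16.4 ± 2.94 and 5.20 ± 1.48 in testis (log2 3.50 ± 0.19 and 4.69 ± 0.23, edgeR adjusted p = 4.22e-08 and 2.45e-08). Neither was low in replicates 3 and 5, in which RIPPLY1 was. TLE2, a Groucho corepressor, had 6.62 CPM in epididymis replicate 4 but 129 to 227 elsewhere in the duct, against 7.48 ± 1.09 (log2 4.23 ± 0.69, edgeR adjusted p = 0.000142). TLE5 was not called with all libraries (log2 0.68 ± 0.34) and was called without replicate 4 (log2 0.94, edgeR adjusted p = 0.000707). TLE4 was higher in testis (log2 -3.36 ± 0.20, edgeR adjusted p = 7.87e-08), and RIPPLY2 had 0 reads in epididymis.

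Position was the other property not used to pick the genes. The 10 lie on 9 chromosomes, with NPC2 and SFTA2 both on chromosome 7 and far apart. Of the 40 nearest genes, taken as 2 with a row on each side of each member, 33 were tested. edgeR called 17 of them higher in epididymis and 4 higher in testis, beside 37.8% and 36.6% of all genes. The median log2 fold change was 0.99. The count higher in testis was 10 without epididymis replicate 3 and 7 with the replicate block. Of the 40, 5 are also in the lists of relatives.

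Next to NPC2, ISCA2 (0.4 kb away) and LTBP2 (4.9 kb) were called higher in epididymis (log2 1.82 ± 0.47 and 3.49 ± 0.26), with mean levels of 28.2 and 55.5 CPM. ISCA2 had 78.0 CPM in epididymis replicate 4, where NPC2 was highest too, and 11.9 to 18.9 elsewhere in epididymis. The log2 fold change of ISCA2 fell as low as 1.07 when single libraries were left out. Next to LTF, the chemokine receptor-like gene CCRL2 (3.4 kb) was called higher at a mean of 1.41 CPM (log2 2.80 ± 0.58), and LRRC2 was not called. Next to ITM2B, RB1 (log2 0.71 ± 0.19), MED4 (log2 1.49 ± 0.40) and RCBTB2 (log2 1.82 ± 0.25) were called higher in epididymis.

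Several neighbours stood apart in the same library as the member or the reverse way. Epididymis replicate 3 lay at least 10-fold above every other epididymis library in 0.852% of the 9856 genes used before. It lay at least 10-fold below in 0.933%. Whether neighbours have their extremes in the same libraries as members more often than other genes was not tested. CES1, the paralog 10.2 kb from CES5A, had 45.1 CPM in epididymis replicate 3 but 0.685 to 1.83 elsewhere in the duct, where CES5A was abundant. It was not called with all libraries and was higher in testis without that library (log2 -3.79, edgeR adjusted p = 5.05e-07) and with the replicate block (log2 -3.07, edgeR adjusted p = 0.0129). SLC6A2, on the other side of CES1, was called higher in epididymis (log2 1.42 ± 0.43, edgeR adjusted p = 0.0106, but 0.0509 with the replicate block) and was lowest in replicate 3, at 2.10 CPM against 11.4 to 16.7. On the other side of CES5A, GNAO1 was higher in testis (log2 -2.41 ± 0.29). SCARA3, 14.8 kb from CLU, had 285 CPM in replicate 3 and was lowest, at 15.6 CPM, in replicate 5, the same extremes as CLU. EPHX2 had its extremes there too (113 and 8.08 CPM), whereas CCDC25 ran from 25.2 to 35.7 CPM. Neither SCARA3 nor EPHX2 was called with all libraries, and both were higher in testis without epididymis replicate 3 (log2 -1.72 and -1.31, edgeR adjusted p = 0.000893 and 0.00253). SCARA3 was so with the replicate block too (log2 -1.28, edgeR adjusted p = 0.0438).

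TEDDM1 lies inside the span of RGSL1, and the strand setting of the counts is not given in the sources used here, so reads could not be assigned by strand. RGSL1 had 11.2 CPM in replicate 3, where TEDDM1 had 8947, and was higher in testis (log2 -0.93 ± 0.22, edgeR adjusted p = 0.00191). GLUL, glutamine synthetase, 3.4 kb away, had 5826 CPM in replicate 3 beside 500.4 to 1374 elsewhere in epididymis, and was not called. Without that library it was higher in testis (log2 -0.73, edgeR adjusted p = 0.0418). RGS16, which was not high in replicate 3, was called higher in epididymis (log2 1.09 ± 0.36, edgeR adjusted p = 0.0156, but 0.0531 without testis replicate 1).

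PROM2 lies 1.2 kb from KCNIP3, which had 1.14 CPM in epididymis replicate 3, 3.17 in replicate 4 and from 23.0 to 53.3 in replicates 1, 2 and 5, against 26.0 CPM on average in testis. KCNIP3 was not called. The zinc finger genes ZNF2 and ZNF514 on the other side were called higher in epididymis (log2 0.99 ± 0.22 and 1.57 ± 0.24), and ADRA2B, an adrenergic receptor, higher in testis. LY6L sits among LY6 genes, and its neighbours GPIHBP1 and LY6E were called higher in epididymis at 2.69 to 17.8 and 9.40 to 21.4 CPM. Neither had the gap of LY6L in replicate 3. GPIHBP1 was lowest there, at 2.69 CPM, but replicate 5 was near it at 3.77, and LY6E had 14.3 CPM in replicate 3. LY6D and LY6H were at or under 0.153 CPM in every epididymis library. Next to SFTA2, the collagen receptor DDR1 was called higher in epididymis (log2 1.43 ± 0.18), VARS2 was not called with all libraries (higher in testis without epididymis replicate 2, log2 -0.52, edgeR adjusted p = 0.0495), and CDSN was at most 0.167 CPM. Next to RIPPLY1, CLDN2, a claudin, had 237 CPM in replicate 3 but 0.196 to 3.003 elsewhere in epididymis, while RNF128, TBC1D8B and MORC4 were not called. RNF128 was higher in testis with the replicate block (log2 -3.07, edgeR adjusted p = 0.0177) and without epididymis replicate 3 (log2 -2.94, edgeR adjusted p = 0.00304), and TBC1D8B without that library (log2 -1.03, edgeR adjusted p = 0.00928).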

How the data were processed

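RNA of 5 testis and 5 epididymis samples was counted per gene. The deposited values are raw read counts without normalization, made with cutadapt 3.0, STAR and featureCounts (Subread) on the build Sscrofa11.1, per the submitters' processing notes. Gene lengths in bases are given per the file headers. No source used here gives the annotation release or the strand and multi-mapping settings, so overlapping and near-identical genes are uncertain. A gene name table matched 822 of 15226 Ensembl identifiers to a symbol. Positions are those of RefSeq genes on Sscrofa11.1.

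CPM divides a count by its library's total in units of 1000000 reads, and TPM also divides by the length. R 4.3.3 with edgeR 4.0.16 (filterByExpr, TMM, robust quasi-likelihood test, with no term but tissue) gave log2 fold changes and p-values with Benjamini-Hochberg adjustment over 17225 genes. The SE is the unshrunken log2 fold change over the square root of F. The script was tested on simulated data. p-values measure the spread between 5 libraries of each tissue. Replicate numbers pair the tissues, since the same animal numbers stand in the file headers. Same-numbered libraries deviated together only weakly (r = 0.00971 to 0.0902 across genes). Differently numbered ones had r = -0.0891 to 0.0965, so these correlations do not set the pairs of a boar apart. The main test leaves the pairing out, and the block is an alternative. DESeq2 1.42.0, other scalings, no filter and leaving out each library were the others.

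The members and lists were chosen with earlier results of these data known. The text names the members, the 3 most abundant tested genes of each list, the 2 genes nearest in pattern and the 2 nearest neighbours on each side; ELANE, NPC1, TF, CP, LRP2, FURIN, ADAM10, SPPL2B, AADAC, PROM1, PATE3, TEX101, SFTPA1, TBX3, TLE4, MESP2, RIPPLY2 and the marker genes were added after their values were seen. Some genes that the rule would name are not reported here; counts over lists include them.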

Additional observations from a re-analysis of the deposited data

Results flagged for a closer look

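Among 136 groups of 5 libraries examined (both tissues, for each gene named by the rule and the summed share), 31 held a library whose gap to the nearest other was above 0.71 of the range, Dixon's critical value for 5 samples. Chance flags about 1 in 20 where groups are independent and normally spread. Here the genes share libraries and the CPM were not log-transformed, so the 31 are not read against that rate. Of the 10 genes, TEDDM1 (8947 CPM) and SFTA2 (540 CPM) were flagged in epididymis replicate 3, and ITM2B (396 CPM) and SFTA2 (0.0534 CPM, a single read) in testis replicate 4. The choice of the members used the epididymis libraries that carry or lack them, so nothing is read from their epididymis flags.

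Epididymis replicate 3 was also the high library for APLP2 (1830 CPM), ITM2C (553), LIPE (21.5), ESPN (789), ABCA3 (142), CES1 (45.1), EPHX2 (113), GLUL (5826), RNF128 (76.2) and SCARA3 (285). Testis replicate 4 was high for LRPAP1 (315 CPM), APOE (586), TLE5 (203), TLE2 (9.35), CCDC25 (24.0) and MED4 (30.1). It was low for LIPE (510 CPM), LYPD4 (138), DDR1 (62.3), SCARA3 (80.4) and VARS2 (41.1). The remaining libraries flagged were epididymis replicate 4 for CES3 (231 CPM), ISCA2 (78.0) and CHRNA2 (0), replicate 5 for LAMP2 (1353) and ZNF2 (7.15) and replicate 1 for RGSL1 (21.1).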

How the results depend on the processing

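The tissue difference of TEDDM1 rests on epididymis replicate 3: its log2 fold change was 2.18 to 11.56 when single libraries were left out, 3.31 with the replicate block and 2.26 without both that library and testis replicate 4, a setting chosen after seeing the data. That of SFTA2 was 9.74 to 14.26 when single libraries were left out. The 14.26 is from the fit without testis replicate 4, which held the only testis read of SFTA2. With no testis read left, that value is not an estimate of the fold. The other 8 members moved by less than the SD between boars under the 16 alternatives. This is a wide margin for some, with an SD of 4.02 for CES5A and 3.96 for LY6L. For CLU the SD of 2.48 exceeded its log2 fold change of 1.45, so the margin cannot show that CLU was stable. CLU fell to 0.59 without both epididymis replicate 3 and testis replicate 4. Neighbours higher in testis numbered 4 with all libraries, 4 to 10 when single libraries were left out, 7 with the replicate block and 10 without both libraries. Of 62 named genes with a test, 20 changed call or direction under some alternative. None of the 4 that changed direction was called with all libraries; of them, GLUL passed the test in the changed direction, without epididymis replicate 3 (edgeR adjusted p = 0.0418) and without both libraries (edgeR adjusted p = 0.0171). APOE moved to -0.09 with DESeq2 size factors and with DESeq2, to -0.17 with the replicate block and to -0.44 to 0.36 when single libraries were left out. APLP2 ran from -0.18, without epididymis replicate 3, to 1.10 and was -0.28 without both libraries. GLUL was -0.29 with the replicate block, -0.73 (without epididymis replicate 3) to 0.52 when single libraries were left out and -0.86 without both. KCNIP3 ran from -0.81 to 0.12 when single libraries were left out; it was 0.12 without epididymis replicate 3, 0.10 without replicate 4 and 0.03 without both. The cause was not tested. DESeq2 size factors moved the median of all genes from 0.07 to -0.05. LY6L, SFTA2 and RIPPLY1 had 1 to 4 reads in testis, so their folds are limited by depth.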
